A study of Mus musculus with 8 samples.

Results

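The insulin-like growth factor (IGF) system was followed through 10 genes: the ligands Igf1 and Igf2, the receptors Igf1r and Igf2r, and the binding proteins Igfbp2, Igfbp3, Igfbp4, Igfbp5, Igfbp6 and Igfbp7. They were found by matching the Ensembl mouse gene IDs of the count tables to these symbols. All 10 were among the 53647 genes listed, and all 10 were among the 15603 genes with enough counts to be tested. The study asked about oncostatin M (OSM) in the muscle wasting of cancer, and set this cytokine beside 2 relatives, interleukin 6 (IL6) and leukemia inhibitory factor (LIF). Every culture was of wild-type (WT) mouse primary myotubes, the multinucleated muscle fibres that form in a dish when myoblasts fuse. Limbs of 2- to 3-day-old pups supplied the muscle for the myoblasts, which were differentiated in medium with 5% horse serum. The treated groups received OSM, LIF or IL6 at 250 ng/ml for 48 h, the control group is labelled only as control at the same time, and cells were collected 72 h after the start of differentiation. Each of the 4 groups had 2 libraries, called replicates 1 and 2 below. The labels do not say whether replicates were separate animals, litters or dishes, so p-values measure only the spread between these libraries, which may be technical.

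IGF1 and IGF2 are secreted hormones that promote growth and differentiation of muscle through the IGF1 receptor, a tyrosine kinase at the cell surface. The IGF2 receptor, also the cation-independent mannose 6-phosphate receptor, takes IGF2 up for breakdown in lysosomes. The IGF-binding proteins are secreted carriers that hold the ligands outside the cell and can limit or prolong their access to the receptor, and proteases that cut the carriers release the ligands.

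Library depth was even, at 29482077 to 30025471 counts assigned to genes, and 21358 to 21831 genes had at least 1 count. Alignments not assigned to a gene made up 11.7% to 12.7% of each table. Replicates differed by more than counting noise in every group, with a chi-square per gene of 2.89 (LIF) to 11.4 (IL6), so no library was a copy of another. Levels are given as TMM-scaled CPM, which is a gene's counts relative to a library's total after edgeR's TMM correction of that total. A gene is called changed at a Benjamini-Hochberg adjusted p under 0.05 over all tested genes in edgeR's quasi-likelihood test.

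The promoters of 4 of the 5 members that were called with OSM are shown so that the sequence upstream of each gene can be read beside its response. Each is the 250 bases before the RefSeq transcription start in build GRCm38.p6, 5′ to 3′ on the strand of the gene. Capitals mark a match, on either strand, to the letters searched for. These were TTCNNNGAA, bound by STAT factors, TGANTCA, bound by AP-1, and the E-box CANNTG, bound by myogenic and other helix-loop-helix factors.
Igfbp3 promoter, chr11:7213924-7214173, minus strand: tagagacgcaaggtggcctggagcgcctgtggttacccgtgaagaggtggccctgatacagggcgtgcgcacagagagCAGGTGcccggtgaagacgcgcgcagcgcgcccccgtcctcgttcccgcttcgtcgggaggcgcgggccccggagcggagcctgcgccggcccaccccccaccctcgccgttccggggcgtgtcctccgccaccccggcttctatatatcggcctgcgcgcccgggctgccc
Igfbp7 promoter, chr5:77408046-77408295, minus strand: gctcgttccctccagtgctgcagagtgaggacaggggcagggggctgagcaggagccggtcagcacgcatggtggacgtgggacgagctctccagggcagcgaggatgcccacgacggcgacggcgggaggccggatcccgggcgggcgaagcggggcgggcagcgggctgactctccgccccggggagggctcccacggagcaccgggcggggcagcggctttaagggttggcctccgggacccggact
Igfbp2 promoter, chr1:72824230-72824479, plus strand: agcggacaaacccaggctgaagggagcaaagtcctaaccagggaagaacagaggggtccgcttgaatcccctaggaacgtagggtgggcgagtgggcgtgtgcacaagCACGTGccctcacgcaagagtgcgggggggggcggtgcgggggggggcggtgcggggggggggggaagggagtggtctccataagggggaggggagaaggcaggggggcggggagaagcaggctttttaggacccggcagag
Igfbp6 promoter, chr15:102143936-102144185, plus strand: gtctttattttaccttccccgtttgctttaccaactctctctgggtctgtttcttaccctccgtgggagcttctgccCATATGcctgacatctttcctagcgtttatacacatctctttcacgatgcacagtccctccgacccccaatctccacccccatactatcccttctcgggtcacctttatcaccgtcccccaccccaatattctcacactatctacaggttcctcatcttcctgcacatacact

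Over all 10 members there were 14 such windows. None held the STAT letters, which 7.02% of all 32851 windows of the same length hold. The AP-1 letters were in 2 windows, before Igf1 and before a second start of Igfbp2, against 6.75% of all windows. In the GENCODE M21 models all 250 bases of the Igf1 window and 65 bases of that Igfbp2 window are exon of the same gene. Some windows of Igf2 and that of Igfbp5 also hold exon bases. The E-box letters were in 9 windows, against 66.2%. Of the promoters shown, Igfbp3 held CAGGTG, Igfbp2 CACGTG and Igfbp6 CATATG, and Igfbp7 held no match to any of the 3 motifs. A match is a description of the letters, and no match says only that they are not in this window.

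With OSM, 2 of the 10 members rose (Igfbp3 and Igfbp7) and 3 fell (Igfbp2, Igfbp5 and Igfbp6). Of all tested genes, 21.4% were called in this comparison, 10.8% higher and 10.6% lower. Without OSM replicate 1, only Igfbp2 and Igfbp3 were called, and fewer of all tested genes were called too. The libraries of the 2 groups did not overlap for 9 of the 10 members, against 60.9% of all tested genes. With LIF, Igfbp3 alone was called, and it rose. Of all tested genes 7.66% were called with LIF, 4.2% higher and 3.46% lower, and the LIF and control libraries did not overlap for 6 of the 10 members, against 52% of all tested genes. With IL6, none of the members was called, and 0% of all tested genes were called. Of these genes, 795 had an unadjusted p under 0.05, close to the number that this threshold gives when no gene differs. DESeq2 called 19 genes, edgeR with no filter on low counts 97, and edgeR with the replicate number added to the fit 9. The IL6 and control libraries did not overlap for 4 of the 10 members, against 28.2% of all tested genes. The median log2 difference over the 10 members was -0.14 with OSM, 0.076 with LIF and -0.042 with IL6, beside medians over all tested genes of -0.0029, -0.0079 and 0.00061. The 3 comparisons share the same control libraries.

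**Figure D1:**
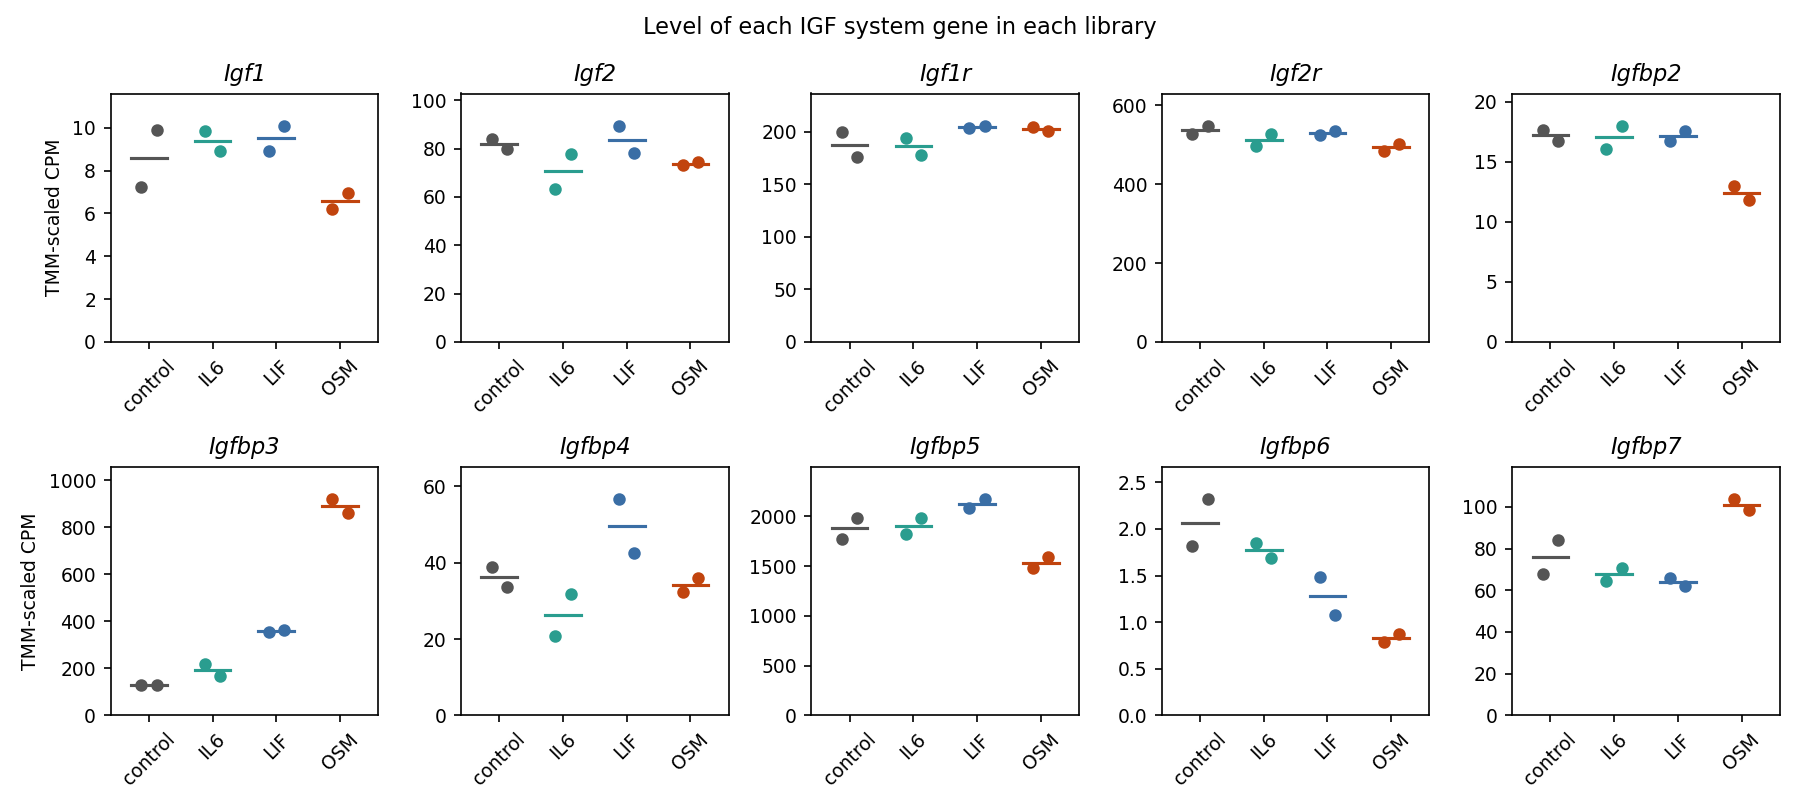
TMM-scaled CPM of each of the 10 genes (vertical axis from 0, 1 panel a gene) in the control, IL6, LIF and OSM groups. Each point is 1 library and each bar the group mean; Igfbp3 goes from about 130 in the control libraries to 861 and 919 in the OSM libraries, and Igf1r lies between 176 and 205 in all 8 libraries.

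Igfbp3, which encodes the main IGF carrier of the blood and is also secreted by many cells, had the widest range of the members. Its level was 129 and 131 CPM in the control libraries (3760 and 3910 counts). It was 217 and 169 CPM in the IL6 libraries, 356 and 364 CPM in the LIF libraries, and 919 and 861 CPM in the OSM libraries. No group overlapped another, and the order was control, IL6, LIF and OSM. With OSM, Igfbp3 rose 6.84-fold, a log2 difference of 2.77 (SE 0.099, 95% interval 2.56 to 2.99, edgeR adjusted p = 6.11e-09). With LIF it rose 2.76-fold, a log2 difference of 1.47 (SE 0.096, edgeR adjusted p = 4.34e-06). In bulk RNA, a change in the number of cells that express a gene and a change in RNA per cell cannot be told apart.

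Between cytokines, Igfbp3 was 2.47-fold higher with OSM than with LIF (log2 1.31, SE 0.094, edgeR adjusted p = 7.49e-06) and 4.61-fold higher than with IL6 (log2 2.21, edgeR adjusted p = 4.91e-08). It was also higher with LIF than with IL6, by 0.90 on the log2 scale (edgeR adjusted p = 4.04e-04). These 3 calls, and those of OSM and LIF against control, held in all 15 alternatives run. IL6 against control was the exception: the difference was 0.57 (SE 0.095), 1.48-fold, with an unadjusted p of 6.84e-05 and an edgeR adjusted p of 0.178, and was not called. Under DESeq2 the adjusted p was 1.20e-05. With no filter on low counts it was also called (edgeR adjusted p = 7.87e-13), as it was with the replicate number added to the fit. The difference was 0.74 without IL6 replicate 2, the lower of the IL6 libraries, and 0.37 without IL6 replicate 1.

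Igfbp7 encodes a secreted protein of the vessel wall and matrix that binds IGFs only weakly. Its level was 67.8 and 84.1 CPM in the control libraries, 64.4 and 70.8 with IL6, 66.1 and 61.9 with LIF, and 104 and 98.7 with OSM. Both OSM libraries lay above the 6 others, of which control replicate 2 was the highest, and the LIF libraries lay below the control libraries. Igfbp7 rose with OSM by 0.41 on the log2 scale (SE 0.091, 1.33-fold, edgeR adjusted p = 0.00608). It was also higher with OSM than with LIF, by 0.66 (edgeR adjusted p = 5.70e-04), and than with IL6, by 0.58 (edgeR adjusted p = 7.61e-04). With LIF the difference from control was -0.25 (SE 0.092, edgeR adjusted p = 0.145), which was not called; it was -0.39 without control replicate 1 (edgeR adjusted p = 0.0116) and -0.078 without control replicate 2 (edgeR adjusted p = 0.705). Without OSM replicate 1 the edgeR adjusted p of OSM against control was 0.0727, and without control replicate 1 the difference was 0.27 (edgeR adjusted p = 0.0482). In the GENCODE M21 models 7.03% of Igfbp7 exon bases lie opposite exons of Polr2b, an RNA polymerase subunit with 3679 to 3992 counts.

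Igfbp5 encodes the carrier that muscle cells make in quantity as they differentiate. Its level was 1772 and 1988 CPM in the control libraries, 1826 and 1981 with IL6, 2083 and 2171 with LIF, and 1477 and 1593 with OSM. The OSM libraries were the lowest of the 8 and the LIF libraries the highest. Igfbp5 fell with OSM by 0.29 on the log2 scale (SE 0.074, edgeR adjusted p = 0.0126), and was lower with OSM than with LIF (log2 difference -0.47, SE 0.074, edgeR adjusted p = 0.00121) and than with IL6 (log2 difference -0.31, edgeR adjusted p = 0.0115). The LIF difference from control, 0.18 (SE 0.074, edgeR adjusted p = 0.187), was not called. The call against control was lost without control replicate 2 (edgeR adjusted p = 0.0998) and without OSM replicate 1 (edgeR adjusted p = 0.180). Without OSM replicate 1, the calls against LIF (edgeR adjusted p = 0.0540) and IL6 (edgeR adjusted p = 0.182) were lost too.

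Igfbp2, the neighbour of Igfbp5 among protein-coding genes on chromosome 1, encodes a carrier that also binds integrins. Its level was 17.6 and 16.8 CPM in the control libraries, 16.1 and 18.0 with IL6, 16.7 and 17.6 with LIF, and 13.0 and 11.8 with OSM. Both OSM libraries lay below the 6 others, which overlapped each other. Igfbp2 fell with OSM by 0.47 on the log2 scale (SE 0.10, edgeR adjusted p = 0.00516), and was lower with OSM than with LIF (log2 difference -0.47, edgeR adjusted p = 0.0114) and than with IL6 (log2 difference -0.46, edgeR adjusted p = 0.00801). The call against control was lost without OSM replicate 2 (edgeR adjusted p = 0.0751). The call against LIF was lost without either LIF library or either OSM library, at edgeR adjusted p-values from 0.0585 to 0.140, and the call against IL6 without OSM replicate 2 (edgeR adjusted p = 0.105).

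Igfbp6 encodes a carrier that prefers IGF2 to IGF1 and was the member with the fewest counts. It had 53 and 69 counts in the control libraries, 56 and 50 with IL6, 44 and 32 with LIF, and 23 and 26 with OSM. The corresponding levels were 1.82 and 2.32, 1.85 and 1.69, 1.48 and 1.07, and 0.79 and 0.87 CPM, so the OSM libraries lay below all others and the LIF libraries below the control and IL6 libraries. Igfbp6 fell with OSM by 1.31 on the log2 scale (SE 0.28, edgeR adjusted p = 0.00457), and was lower with OSM than with IL6 (log2 difference -1.09, SE 0.29, edgeR adjusted p = 0.0196). The LIF difference from control was -0.70 (SE 0.26, edgeR adjusted p = 0.147), and that between OSM and LIF -0.62 (SE 0.30, edgeR adjusted p = 0.266); neither was called. Without OSM replicate 1 the edgeR adjusted p of OSM against control was 0.0588, and the call against IL6 was lost without IL6 replicate 1 or either OSM library (0.0691 to 0.153) and under DESeq2 (adjusted p = 0.0532).

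Igfbp4 encodes a carrier that restrains IGF action until it is cut by the protease PAPP-A. Its level was 38.8 and 33.6 CPM in the control libraries, 20.9 and 31.7 with IL6, 56.6 and 42.5 with LIF, and 32.2 and 36.0 with OSM. The LIF libraries were the highest and the IL6 libraries the lowest, and replicates of these 2 groups lay far apart. No comparison of Igfbp4 was called: LIF and IL6 differed by 0.91 (SE 0.20, edgeR adjusted p = 0.0514), LIF and control by 0.45 (SE 0.19, edgeR adjusted p = 0.232) and IL6 and control by -0.46 (SE 0.20, edgeR adjusted p = 0.943). LIF against IL6 was called under DESeq2 (adjusted p = 0.0233) and, without IL6 replicate 2, in edgeR (adjusted p = 0.00475), which then called OSM against IL6 as well (0.71, adjusted p = 0.0217). Without IL6 replicate 1 these differences were 0.65 (edgeR adjusted p = 0.0783) and 0.11 (edgeR adjusted p = 0.717). OSM against LIF, at -0.54, was called without IL6 replicate 1 (edgeR adjusted p = 0.0241), without IL6 replicate 2 (0.0263) and with only the OSM and LIF libraries (0.0112).

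**Figure D2:**
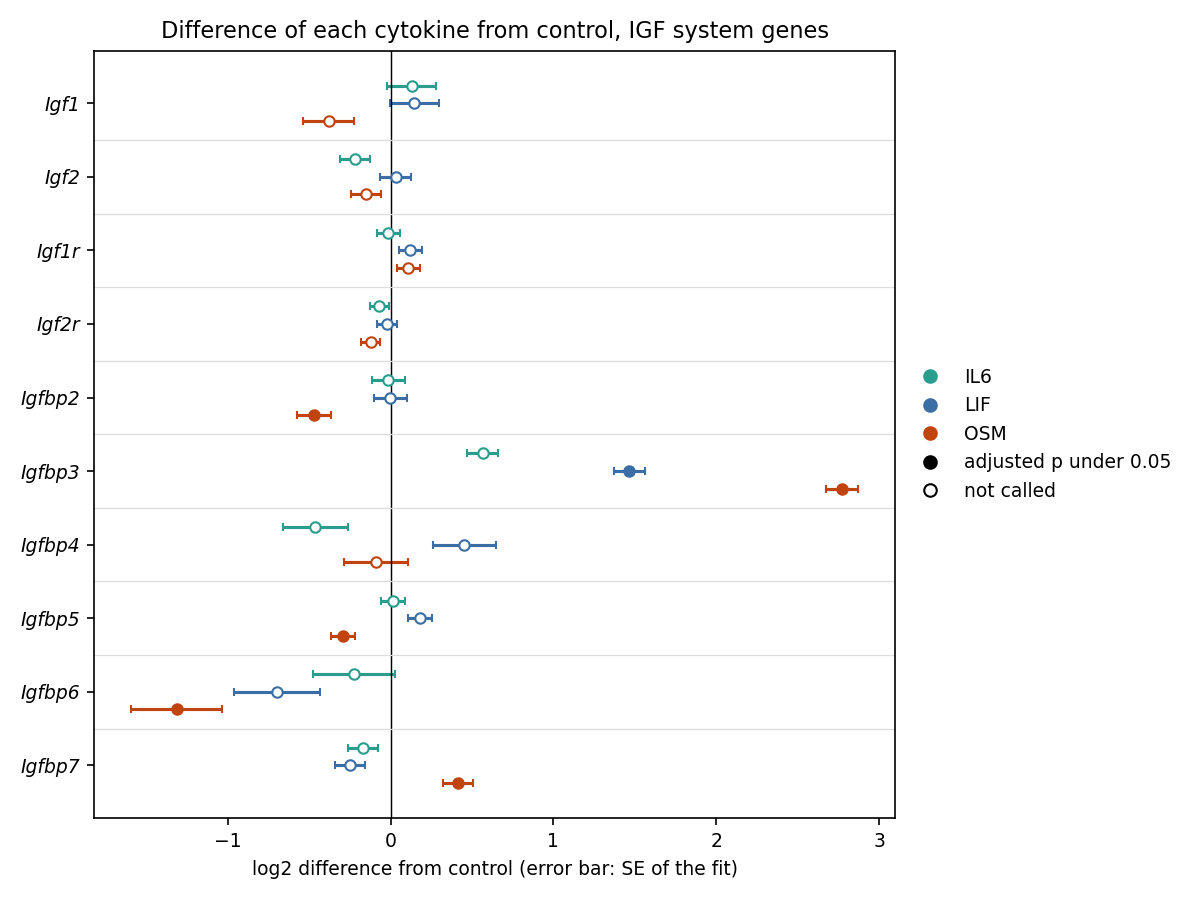
Log2 difference from control of each of the 10 genes (horizontal axis) with IL6, LIF and OSM; bars are SEs of the fit to all 8 libraries. The OSM values run from -1.31 for Igfbp6 to 2.77 for Igfbp3, and the 4 ligand and receptor genes lie between -0.38 and 0.15 under all 3 cytokines.

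Among the ligands, Igf1 was 7.24 and 9.91 CPM in the control libraries, 9.86 and 8.90 with IL6, 8.91 and 10.1 with LIF, and 6.23 and 6.95 with OSM. Both OSM libraries lay below the 6 others, and control replicate 1 was the nearest to them. Against control the difference was -0.38 (SE 0.16, edgeR adjusted p = 0.11), which was not called. Without control replicate 1 it was -0.59 (edgeR adjusted p = 0.0216), and without control replicate 2 it was -0.13 (edgeR adjusted p = 0.670). Igf1 was lower with OSM than with IL6 (log2 difference -0.51, SE 0.16, edgeR adjusted p = 0.0424), and the difference from LIF of -0.53 (SE 0.16, edgeR adjusted p = 0.0583) was not called. The call against IL6 was lost without IL6 replicate 1 and without any 1 of the LIF or OSM libraries, at edgeR adjusted p-values from 0.0655 to 0.287, and under DESeq2 (adjusted p = 0.0547). The difference from LIF was called without any 1 of the control or IL6 libraries, at edgeR adjusted p-values from 0.0205 to 0.0395.

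Igf2, the ligand of fetal growth that cultured muscle cells also make as they differentiate, was 84.1 and 79.7 CPM in the control libraries, 63.2 and 77.8 with IL6, 89.4 and 78.0 with LIF, and 73.1 and 74.4 with OSM. The IL6 and OSM libraries lay below the control libraries, and the LIF libraries lay on either side of them. No comparison was called: the difference from control was -0.15 (SE 0.093, edgeR adjusted p = 0.290) with OSM, 0.031 (edgeR adjusted p = 0.904) with LIF and -0.22 (edgeR adjusted p = 0.943) with IL6. Without IL6 replicate 2 the IL6 difference was -0.37 (edgeR adjusted p = 0.0413) and that of LIF from IL6 0.41 (edgeR adjusted p = 0.0131). Without IL6 replicate 1 they were -0.075 (edgeR adjusted p = 0.999) and 0.11 (edgeR adjusted p = 0.628). In the GENCODE M21 models 62.8% of Igf2 exon bases are shared, on the same strand, with the model Gm49394, which had 4 to 17 counts. A read that fits both models may have been left out of both, so the level of Igf2 is uncertain and may be understated.

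Neither receptor was called in any of the 6 comparisons between groups. Igf1r was 199 and 176 CPM in the control libraries, 194 and 178 with IL6, 203 and 205 with LIF, and 204 and 201 with OSM. Igf2r was 527 and 548 CPM in the control libraries, 498 and 527 with IL6, 524 and 535 with LIF, and 485 and 502 with OSM. For Igf1r the LIF and OSM libraries lay above the control libraries, and for Igf2r the OSM libraries lay below them. With OSM the Igf1r difference was 0.11 (SE 0.069, 95% interval -0.040 to 0.26, edgeR adjusted p = 0.304) and the Igf2r difference -0.12 (SE 0.059, 95% interval -0.25 to 0.0048, edgeR adjusted p = 0.169).

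Compared with LIF, OSM gave higher Igfbp3 and Igfbp7 and lower Igfbp2 and Igfbp5, 4 of the 10 members, beside 8.04% of all tested genes (4.01% higher and 4.04% lower). Compared with IL6, the same 2 were higher and Igf1, Igfbp2, Igfbp5 and Igfbp6 lower, 6 of the 10, beside 15.5% of all tested genes (8.02% higher and 7.52% lower). Between LIF and IL6, Igfbp3 was the 1 member called, and it was higher with LIF, beside 2.78% of all tested genes called and 1.76% higher. Without OSM replicate 1 fewer members were called in both comparisons with OSM, and fewer of all tested genes were called too.

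Divided by the length of all exons of each gene in kilobases (kb), levels can be compared between genes. Igfbp5 had the highest level per kb of the 10 members in the control, IL6 and LIF groups, at 313 ± 25.4, 317 ± 18.2 and 354 ± 10.4 CPM per kb (SD, n = 2), and 256 ± 13.7 with OSM. Igfbp3 was 41.6 ± 0.515 CPM per kb in the control group, behind Igfbp5, Igfbp7 and Igf2r, and 61.6 ± 10.9 with IL6, 115 ± 1.76 with LIF and 284 ± 13.2 with OSM. Igfbp3 thus had the highest mean level per kb with OSM. The ratio of Igfbp3 to Igfbp5 per kb was 0.140 and 0.127 in the control libraries, 0.228 and 0.163 with IL6, 0.328 and 0.321 with LIF, and 1.19 and 1.04 with OSM. Igf1 and Igfbp6 had the lowest mean levels per kb in every group, at 0.665 to 0.959 and 0.746 to 1.86 CPM per kb.

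The summed level per kb of the 6 binding protein genes was 412 and 461 in the control libraries, 442 and 461 with IL6, 538 and 549 with LIF, and 640 and 637 with OSM. Igfbp3 made up 9.996% and 9.09% of that sum in the control libraries, 15.7% and 11.7% with IL6, 21.1% and 21.2% with LIF, and 45.9% and 43.2% with OSM. Igfbp5 made up 71.6% and 71.8% in the control libraries and 38.4% and 41.6% with OSM. These sums are of RNA and say nothing of the amount of protein.

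**Figure D3:**
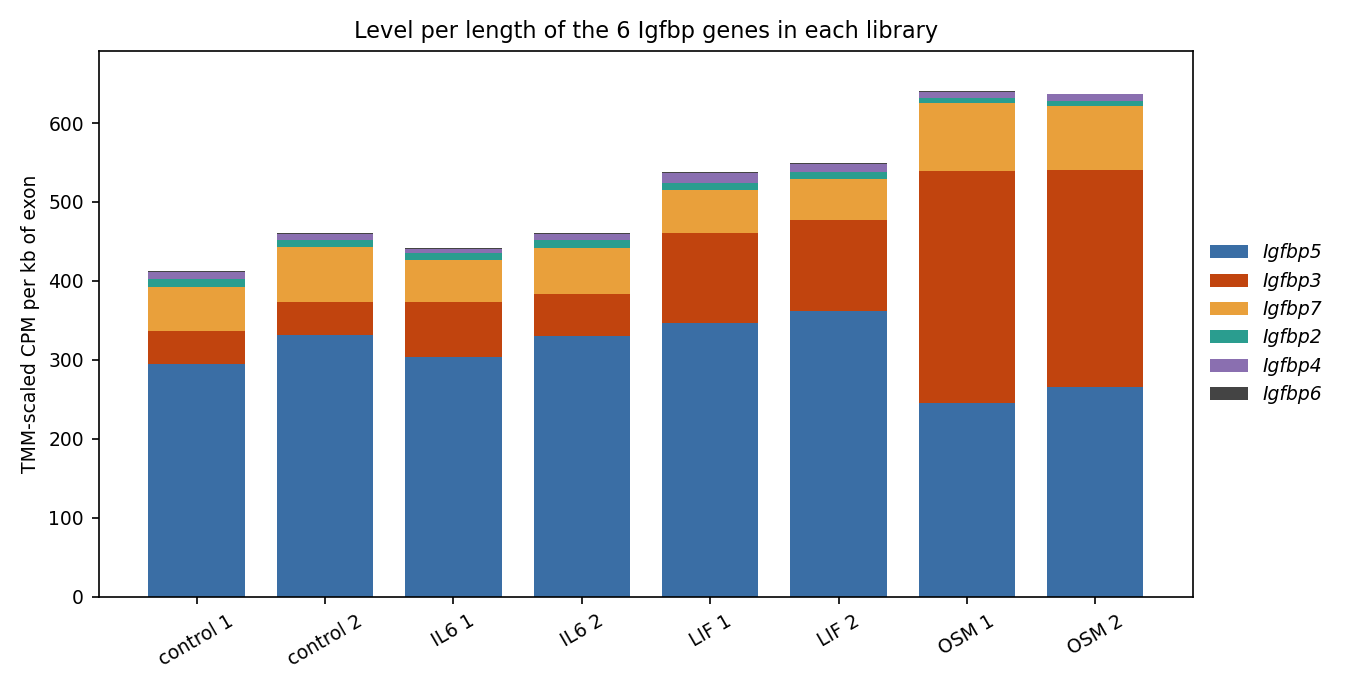
TMM-scaled CPM per kb of exon (vertical axis) of the 6 Igfbp genes, stacked for each of the 8 libraries. The Igfbp3 share is 9.09% to 9.996% of the stack in the control libraries and 43.2% to 45.9% in the OSM libraries.

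Of 18 other genes of the IGF system, 15 had enough counts to be tested. Igfbp1, whose gene lies beside Igfbp3 on chromosome 11 among protein-coding genes, had 0 counts in every library, which allows up to 3 counts a library for counting error only. Igfals, the partner of IGFBP3 in the blood, had at most 2 counts and Igfbpl1 at most 1. With OSM 3 of the 15 rose and 2 fell, beside 10.8% of all tested genes higher and 10.6% lower. With LIF 3 rose and 2 fell, beside 4.2% higher and 3.46% lower. With IL6 none of the 15 was called. The median log2 difference over the 15 was 0.066 with OSM, 0.024 with LIF and 0.018 with IL6.

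Htra1, a secreted protease that cuts binding proteins, was 302 and 258 CPM in the control libraries, 374 and 348 with LIF and 387 and 409 with OSM. It rose with OSM by 0.50 on the log2 scale (SE 0.086, edgeR adjusted p = 0.00104) and with LIF by 0.36 (edgeR adjusted p = 0.0212). Pappa2, a protease that cuts IGFBP3 and IGFBP5, was 20.7 and 21.7 CPM in the control libraries, 13.7 and 15.5 with LIF and 13.3 and 15.2 with OSM. It fell with OSM by 0.57 (SE 0.10, edgeR adjusted p = 0.00135) and with LIF by 0.54 (edgeR adjusted p = 0.00580). Both genes therefore had LIF and OSM libraries on the same side of the control libraries.

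Grb10, an adaptor that restrains the insulin and IGF1 receptors, was 22.1 and 18.9 CPM in the control libraries, 12.9 and 13.2 with LIF and 14.1 and 13.0 with OSM. It fell by 0.60 with OSM (SE 0.11, edgeR adjusted p = 0.00121) and by 0.65 with LIF (SE 0.11, edgeR adjusted p = 0.00240). Ghr, the growth hormone receptor, rose by 0.22 with OSM (edgeR adjusted p = 0.0226) and by 0.25 with LIF (edgeR adjusted p = 0.0278). Insr, the insulin receptor, rose with OSM by 0.19 (edgeR adjusted p = 0.0438) and Stc1, whose product belongs to a family that inhibits PAPP-A, rose with LIF by 0.24 (edgeR adjusted p = 0.0455). Several of these calls were lost when 1 library was left out, even 1 outside the comparison that hardly moved the difference. Of the 8 fits that leave 1 library out, all but those without an IL6 library lost at least 1 of them: 5 lost Insr, 5 lost Ghr in each comparison and 6 lost Stc1. The LIF call of Htra1 was lost without control replicate 2 (edgeR adjusted p = 0.114), LIF replicate 1 (0.203) or LIF replicate 2 (0.0861), and that of Pappa2 without LIF replicate 1 (0.101). Insr was also not called under DESeq2 (adjusted p = 0.0687) or with upper-quartile scaling (edgeR adjusted p = 0.0634).

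**Figure D4:**
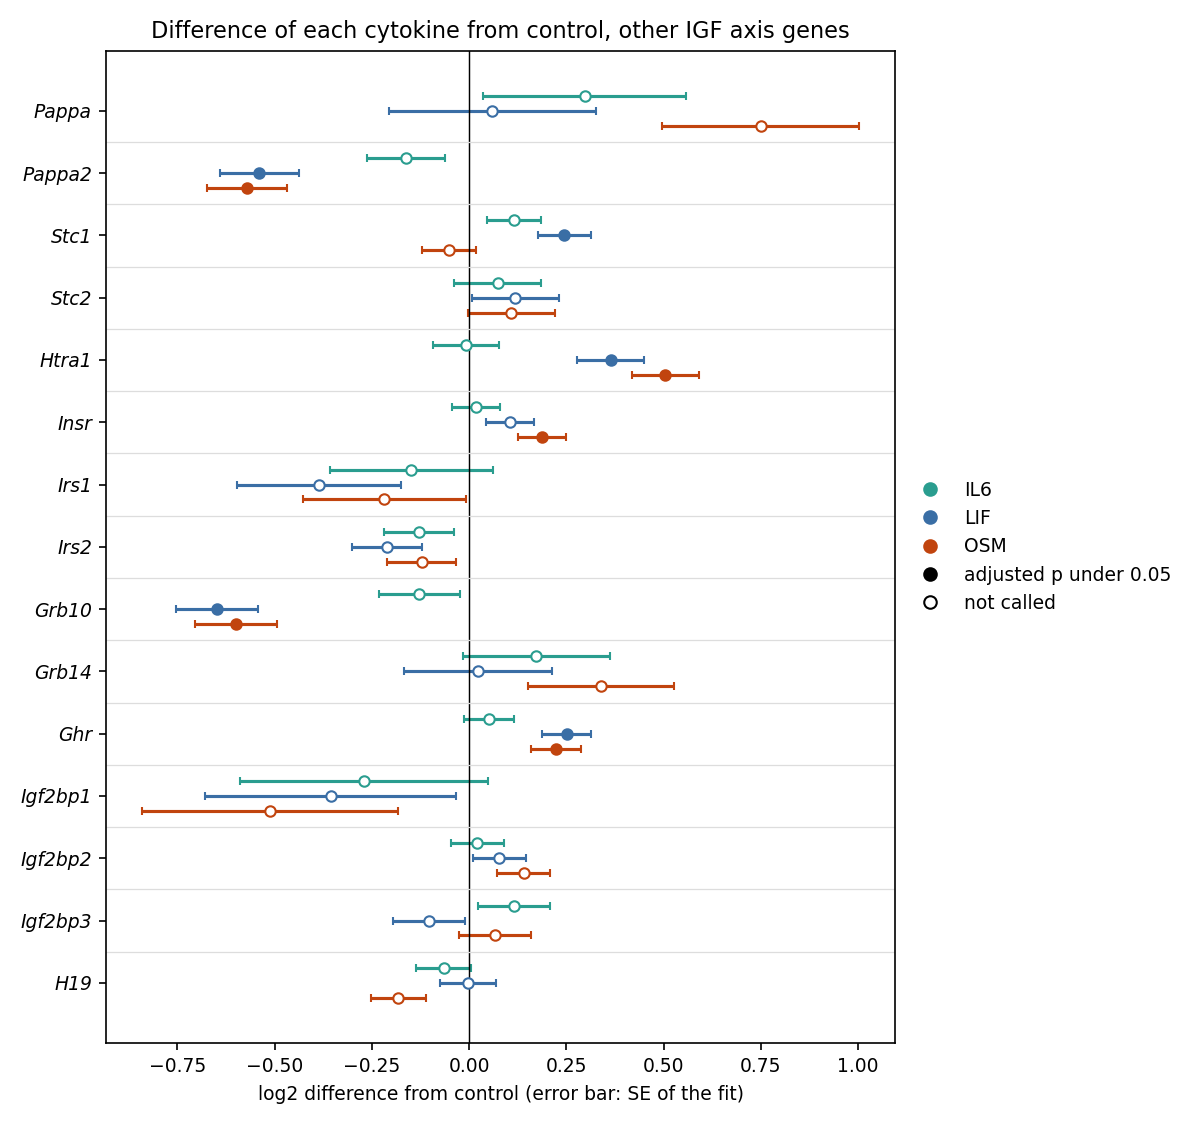
Log2 difference from control (horizontal axis) of the 15 other IGF system genes tested, with IL6, LIF and OSM; bars are SEs of the fit. Htra1 lies at 0.50 and Grb10 and Pappa2 at -0.60 and -0.57 with OSM, and their LIF values lie on the same side of 0.

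Markers of muscle were abundant, as the labelled cell type has it, and some moved with the groups. The summed level of 10 myotube markers was 26171 to 27409 CPM in the control libraries, 22825 to 25576 with IL6, 23225 to 24818 with LIF and 22561 to 22729 with OSM. Of the 10, 4 fell with OSM, beside 10.6% of all tested genes, among them Myog, a myogenic transcription factor, by 0.53 (edgeR adjusted p = 6.96e-04). With LIF 3 of the 10 fell, beside 3.46% of all tested genes, and with IL6 none was called. The mean of Myog was 1133 CPM in the control group, 842 with LIF and 786 with OSM. The sum of 8 myoblast markers was 310 to 344 CPM in the control libraries and 366 to 373 with OSM. Of the 6 tested, Pax7 and Myf5 rose with OSM by 0.39 and 0.82 (edgeR adjusted p = 8.52e-04 and 0.0316), beside 10.8% of all tested genes higher. The other 4 were not called, and among these the mean of Fgfr4 was lower with OSM (7.89 CPM) than in the control group (8.50 CPM). Other cell types were also looked for. The sum of 10 fibroblast markers was 1675 to 1744 CPM in the control libraries, 1534 to 1728 with IL6, 2006 to 2068 with LIF and 2074 to 2181 with OSM, of which the collagen gene Col3a1 made up 79.5% to 95.1% over all libraries. Of the 6 fibroblast markers tested, Col3a1 and Pdgfra rose with OSM, by 0.49 and 0.53 (edgeR adjusted p = 3.73e-04 and 0.0193), and Cd34 fell by 0.76 (edgeR adjusted p = 4.49e-04). Beside these, 10.8% of all tested genes were higher and 10.6% lower with OSM. With LIF 1 of the 6 rose, beside 4.2% of all tested genes, and none fell. Col1a1 was 309 and 169 CPM in the control libraries and 72.1 and 84.7 CPM with OSM, a difference of -1.61 that was not called (edgeR adjusted p = 0.0858). Lum and Tcf21 had 0 counts in every library, and Thy1 at most 1. The sums were 1.30 to 1.38 and 1.64 to 2.28 CPM for 6 endothelial markers, 2.57 to 2.85 and 5.10 to 5.37 CPM for 6 macrophage markers and 0.412 to 0.571 and 1.28 to 1.61 CPM for 5 adipocyte markers, in the control and OSM libraries. For 6 smooth muscle and pericyte markers they were 111 to 123 and 123 to 128 CPM, of which Notch3 made up 55.8% to 64.7% over all libraries. Of the 4 tested, 1 was called with OSM, and it fell, beside 10.6% of all tested genes lower. This was Rgs5, with 15 and 31 counts in the control libraries and 5 and 7 with OSM. With LIF 1 of the 4 rose, beside 4.2% of all tested genes. Cd68 and Fabp4, the most abundant macrophage and adipocyte markers, rose with OSM by 1.03 and 1.68 (edgeR adjusted p = 0.00186 and 0.0104). Of the other macrophage markers, Adgre1 and C1qa had at most 1 count in any library, Ptprc at most 3, Csf1r 1 to 7 and Itgam 14 to 47. Fabp4 had 11 to 14 counts in the control libraries and 37 to 44 with OSM, and made up 70.8% to 100% of the adipocyte sum over all libraries. Of the other adipocyte markers, Adipoq had at most 3 counts, Lep and Cidec at most 2 and Plin1 at most 1. The mean of Adipoq was lower with OSM (0.017 CPM) than in the control group (0.068 CPM). The part of these marker changes in the levels of the IGF system genes was not tested.

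The genes whose log2 CPM followed a member most closely over the 8 libraries were taken for the 3 members with the widest range of group means. For Igfbp3 they were Emilin1, Sdc4 and Tmem45a, each with Pearson r = 0.996 (n = 8 libraries). With OSM these 3 genes rose by 1.13, 0.72 and 1.33 on the log2 scale. For Igfbp6 they included Nmral1 (r = 0.988) and Ddx11 (r = 0.986), and for Igfbp4 Coro7 (r = 0.980), Fbn1 (r = 0.958) and Nectin2 (r = 0.955). The libraries share groups and depth, and r is given as a description of likeness. By Spearman's rho, 29 genes tied at 1 for Igfbp3 and 18 for Igfbp6, so the order by rank does not single out a few.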

How the data were processed

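Messenger RNA libraries (Illumina TruSeq Stranded mRNA, per the labels' protocols) were made from 8 cultures. The deposited files hold whole-number counts per Ensembl gene, 1 file a library. The submitters' processing notes name FastQC 0.11.9, MultiQC 1.12, Trim Galore 0.6.5, STAR 2.7.3a, HTSeq 0.11.1, DESeq2 1.34.0 and the build GRCm39 (mm39), with no role or order. The annotation release and the strand and overlap settings of the counting are not given in the sources used here, so overlapping genes can lose or share counts. Symbols were matched to 52093 of 53647 IDs, which hold 99.8% of counts; rows that name no gene (11.7% to 12.7% of each table) were left out of library sizes and tests.

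Counts were tested with edgeR 4.0.16 in R 4.3.3: filterByExpr at its defaults (minimum count 10; 15603 genes kept), TMM scaling, 1 mean per group over all 8 libraries (4 residual degrees of freedom), and glmQLFTest with Benjamini-Hochberg adjustment within each of 6 contrasts. The script was tested on simulated data. Alternatives were other scalings, DESeq2 1.42.0, limma-voom (limma 3.58.1), no filter, a replicate block, only the groups compared, and each library left out. Lengths, overlaps and shared stretches come from GENCODE M21, which is of another build than the files, so its coordinates are set only against the promoter windows. Promoters come from RefSeq's GRCm38.p6 table, which held windows for all 10 members.

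All 10 members are named, as are the other IGF system genes called against control and, for the 3 members with the widest range of group means, the 3 genes of highest Pearson r with a mean of at least 100 counts. One item that this rule names is not reported here. The members and all gene lists were chosen with earlier results of these data known.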

Additional observations from a re-analysis of the deposited data

How the results depend on the processing

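With 2 libraries a group, small differences may go uncalled. Of 60 differences (10 members, 6 comparisons), 17 were called and 7 were called under all 15 alternatives; no called difference changed sign. Members called against IL6 with LIF numbered 2 under DESeq2's size factors in edgeR, DESeq2, limma-voom and no filter. Calls over all genes there were 425, 498, 417 and 985, against 434 in the main fit. With IL6 against control, 1 was called under DESeq2, no filter and the replicate block, beside 19, 97 and 9 of all genes, against 0. With LIF against control 2 were called with no filter, beside 1702 of all genes, against 1195. Between OSM and LIF 7 were called with only those libraries, beside 2928 of all genes, against 1255. Leaving out 1 library gave 2 to 6 members called for OSM, 1 to 2 for LIF and 0 to 2 for IL6 against control, 2 to 6 for OSM against LIF, 3 to 7 for OSM against IL6 and 1 to 3 for LIF against IL6. The other IGF system genes, whose alternatives were chosen after seeing the data, gave 3 to 7 calls for OSM, 1 to 5 for LIF and 0 for IL6. The cause was not tested.

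Over all genes, leaving out 1 library gave 1622 (without OSM replicate 1) to 4067 calls for OSM against control, where 3335 were called, and 316 (without LIF replicate 2) to 1688 for LIF against control, where 1195 were called. With no filter LIF against IL6 gave 985 calls and with the replicate block 826, against 434. The labels do not say whether replicate numbers pair the libraries, and pairing was not tested. Deviations of replicate 1 from the group means correlated at 0.0071 to 0.18 between groups. The replicate block gave 3966 calls for OSM against control, against 3335, and 1670 for LIF against control, against 1195. With the replicate block 5, 1 and 1 members were called for OSM, LIF and IL6 against control.

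The ratio of Igfbp3 to Igfbp5 per kb, by the longest transcript, was 0.172 (control), 0.253 (IL6), 0.419 (LIF) and 1.44 (OSM). The Igfbp2 difference with LIF was 0.000351 under DESeq2's size factors, 0.000337 under DESeq2 and 0.00495 with only those libraries. Leaving out 1 library turned these uncalled differences: Igfbp4 with OSM (-0.18 to 0.020); Igf1 (-0.061 to 0.40), Igf2 (-0.070 to 0.13), Igf2r (-0.049 to 0.011) and Igfbp2 (-0.036 to 0.035) with LIF; Igf1 (-0.079 to 0.38), Igf1r (-0.099 to 0.077), Igfbp2 (-0.097 to 0.065) and Igfbp5 (-0.063 to 0.10) with IL6; Igf1r between OSM and LIF (-0.021 to 0.0031); Igf2 between OSM and IL6 (-0.070 to 0.22); and Igf1 (-0.073 to 0.10) and Igfbp2 (-0.064 to 0.096) between LIF and IL6.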
